A study of Mus musculus with 10 samples.

Results

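Genes of DNA replication and S phase were compared in the jejunum of mice that had lost Pcyt1a from the intestinal epithelium. The set holds 39 named genes for origin licensing, the replicative helicase, the polymerases, nucleotide supply, chromatin assembly and their transcriptional control. A gene was measured where a probe set carried its symbol and no other, and the probe set with the highest mean was taken where there were several. This gave 38 of the 39 genes, out of 22180 genes in all, and Rfc4 was not analysed here. RNA of 5 knockout and 5 control samples was hybridised to Affymetrix whole-transcript arrays, 1 array per sample. The knockouts were Pcyt1aLoxP/LoxP;VilCreERT2, in which the villin promoter drives a tamoxifen-inducible Cre in gut epithelium, and the controls were Pcyt1aLoxP/LoxP without Cre. Mice of both groups were female, 10 to 12 weeks old, had 5 days of tamoxifen and 4 days of high fat diet, and were fasted overnight before a 3 cm piece of mid small intestine was frozen. Cre activity was thus present in the knockouts alone, so its own effect and that of losing Pcyt1a cannot be told apart. Muscle, stroma and immune cells in the piece are not targeted by this Cre.

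Replication starts when the origin recognition complex, Cdc6 and Cdt1 load the MCM ring onto DNA in G1. At the start of S phase Cdc45 and the GINS complex turn that ring into a working helicase, and the polymerases follow behind it with a sliding clamp. Many of these genes are transcribed under E2F factors, which cyclin E kinase activity releases from the retinoblastoma protein. In the small intestine dividing cells lie in the crypts, beside the Paneth cells, while the absorptive cells of the villus no longer divide. In a whole piece of tissue, more cells of a type and more RNA per cell cannot be told apart.

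Pcyt1a, which encodes the rate-limiting enzyme of phosphatidylcholine synthesis through CDP-choline, fell to 0.262 of the control level (log2 fold change -1.93, SE 0.13, limma adjusted p = 9.58e-05), and its values did not overlap between the groups. Among knockouts it was highest on knockout 2, at a log2 intensity of 7.80 against 7.14 to 7.54 on the other knockouts and 9.18 to 9.55 on the controls. The labelled tissue showed its markers, since the lowest mean log2 intensity among the 14 measured enterocyte markers was 11.26. The median log2 intensity over all genes lay between 5.77 and 5.89 on every array. Smooth muscle markers stood apart on control 7, control 9 and knockout 1, and B and plasma cell markers on control 8 and control 9. Paneth markers were low on knockout 2, control 6 and control 8.

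All 38 genes had a higher mean in knockouts than in controls, as did 46.5% of all genes. Their log2 fold changes, knockout minus control, ran from 0.14 to 0.97 with a median of 0.42, a fold of 1.34, while the median over all 22180 genes was -0.01. The largest differences were in the helicase subunit Mcm3 (0.97) and both subunits of ribonucleotide reductase, Rrm2 (0.97) and Rrm1 (0.95). In the limma fit across all genes 0 of the 38 passed an adjusted p of 0.05, a threshold that 0.0271% of all genes passed, and the smallest adjusted p among the 38 was 0.117. At an unadjusted p under 0.05, 29 of the 38 were higher in knockouts and 0 lower, against 8.29% of all genes higher and 5.56% lower. By an exact permutation test of each gene over the 10 arrays, two-sided, 24 were higher at an unadjusted p under 0.05, against 7.70% of all genes. The groups did not overlap for 5 of the 38, namely Mcm2, Mcm3, Mcm7, Pola2 and Rrm2, against 1.64% of all genes with every knockout above every control.

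**Figure D1:**
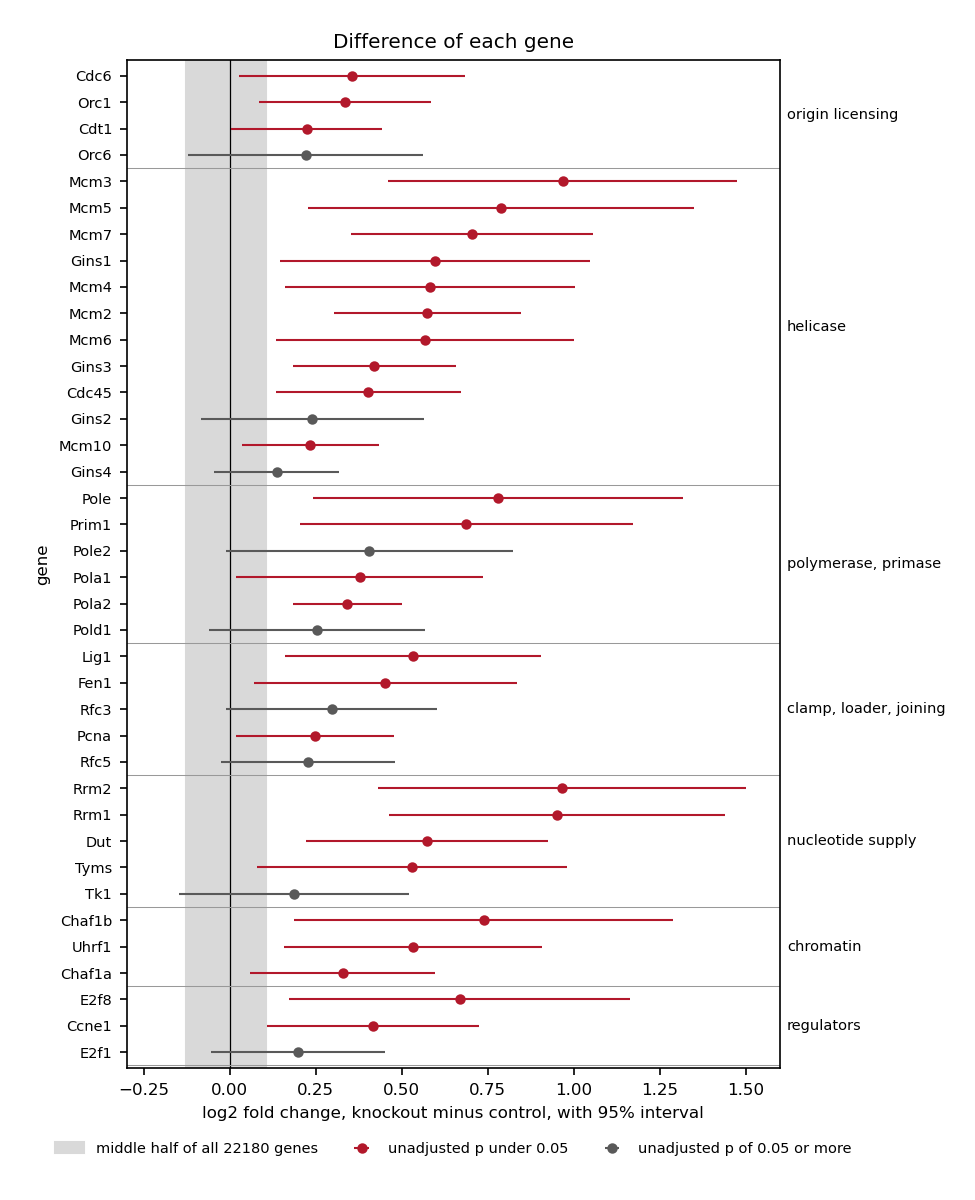
Log2 fold change of each of the 38 genes (x axis, knockout minus control, points) with its 95% interval from the limma fit (bars), grouped by role down the page. The grey band spans the middle 50% of all 22180 genes, from -0.13 to 0.11, and all 38 points lie to its right.

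The arrays of a group did not read these genes alike. The mean log2 intensity of the 38 genes was 7.30, 6.66, 7.42, 7.34 and 7.07 on knockouts 1 to 5 (7.16 ± 0.31, SD, n = 5), against 6.38, 6.73, 6.73, 6.80 and 6.79 on controls 6 to 10 (6.68 ± 0.18, SD, n = 5). Knockouts 1, 3, 4 and 5 lay above all controls, whereas knockout 2 lay below 4 of the 5 controls and above control 6. Knockout 2 was the lowest knockout for 36 of the 38 genes, against 23.8% of all genes, and control 6 the lowest control for 28, against 20.8% of all genes. Knockouts 1, 3, 4 and 5 were all above every control for 29 of the 38 genes, against 5.67% of all genes. This count leaves out the knockout that was lowest for these same genes, so the share over all genes is not a like comparison. Knockout 2 itself was above the median control for 13 of the 38, where 50.8% of all genes were so.

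**Figure D2:**
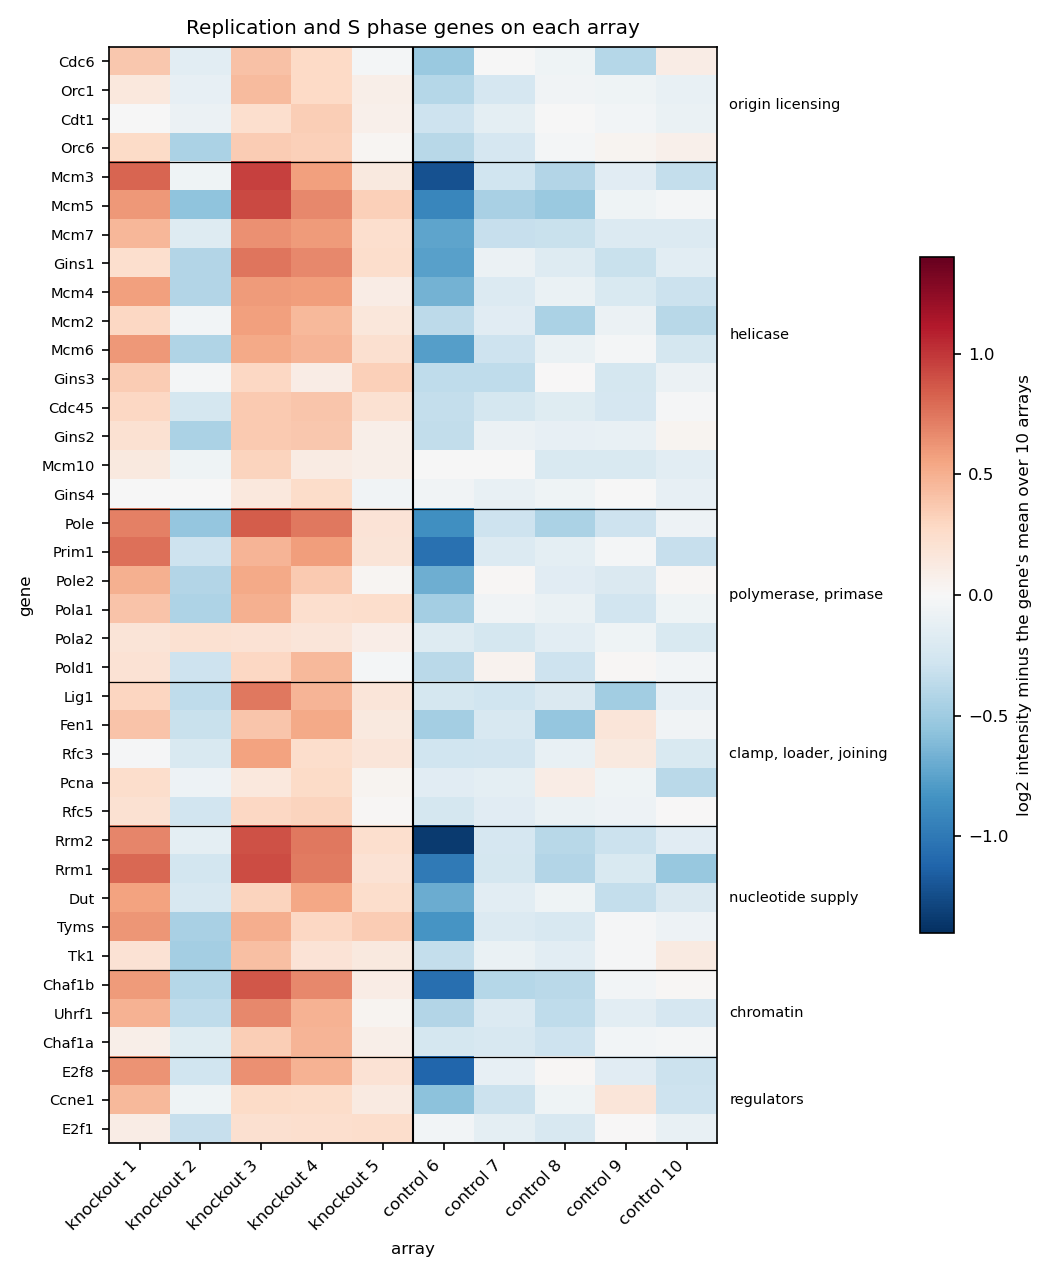
Log2 intensity of each of the 38 genes on each array, minus the gene's mean over the 10 arrays (colour, red above and blue below), with genes grouped by role down the page and knockouts left of controls. Knockouts 1, 3 and 4 are red for nearly every gene, knockout 2 is mostly blue like the controls, and control 6 is the darkest column.

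Of the 4 genes of origin licensing, 3 had an unadjusted p under 0.05, all higher in knockouts, against 8.29% of all genes. The median log2 fold change of the 4 was 0.28. In this role and the others 0 genes passed an adjusted p of 0.05. Cdc6, a loader of the MCM ring, read 6.63, 6.10, 6.66, 6.53 and 6.23 on knockouts 1 to 5, against 5.73, 6.25, 6.19, 5.85 and 6.36 on controls 6 to 10. The groups overlapped, since knockouts 2 and 5 lay within the range of the controls, and the log2 fold change was 0.35 (SE 0.15, adjusted p = 0.325). Orc1, the largest subunit of the origin recognition complex, read 5.32, 5.06, 5.62, 5.45 and 5.26 in knockouts, against 4.78, 4.94, 5.13, 5.11 and 5.07 in controls. Knockout 2 was the 1 knockout below some controls for Orc1, and the log2 fold change was 0.34 (SE 0.11, adjusted p = 0.222). Cdt1, which works with Cdc6 in loading, was higher by 0.22 (SE 0.10). Orc6, another subunit of the complex, did not reach an unadjusted p of 0.05. Its values were 7.08, 6.37, 7.17, 7.15 and 6.84 in knockouts, against 6.42, 6.58, 6.78, 6.85 and 6.88 in controls. The log2 fold change of Orc6 was 0.22 (SE 0.16), and its lowest value of all 10 was that of knockout 2.

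Of the 12 helicase genes, 10 were higher in knockouts at an unadjusted p under 0.05, against 8.29% of all genes. The median log2 fold change of the 12 was 0.57. All 6 subunits of the MCM ring, Mcm2 to Mcm7, were among the 10, with log2 fold changes between 0.57 and 0.97. Mcm3 read 7.79, 6.91, 7.93, 7.55 and 7.11 on knockouts 1 to 5, against 5.75, 6.69, 6.56, 6.81 and 6.64 on controls 6 to 10. Every knockout lay above every control, and control 6 was far below the other controls. The difference was 0.97 (SE 0.23, adjusted p = 0.130), a fold of 1.96. Mcm7 read 7.95, 7.31, 8.13, 8.08 and 7.72 in knockouts, against 6.75, 7.16, 7.17, 7.30 and 7.29 in controls. The groups did not overlap, with knockout 2 just above control 9, and the difference was 0.70 (SE 0.16, adjusted p = 0.128). For Mcm2 the values were 7.70, 7.37, 7.99, 7.87 and 7.57 in knockouts, against 7.05, 7.25, 6.97, 7.33 and 7.03 in controls, a difference of 0.57 (SE 0.13, adjusted p = 0.120).

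The other 3 ring subunits overlapped between the groups through knockout 2. Mcm5 read 8.08, 6.91, 8.39, 8.14 and 7.80 in knockouts, against 6.56, 7.02, 6.95, 7.41 and 7.44 in controls, and its difference was 0.79 (SE 0.26, adjusted p = 0.210). Knockouts 1, 3, 4 and 5 were above all controls for Mcm5, and knockout 2 lay below 4 controls. Mcm4 was higher by 0.58 (SE 0.19) and Mcm6 by 0.57 (SE 0.20), both with 4 of 5 knockouts above all controls.

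The partners of the ring differed less evenly. Cdc45, which binds the ring to form the active helicase, was higher by 0.40 (SE 0.12, adjusted p = 0.195). Among the 4 subunits of the GINS complex, Gins1 was higher by 0.60 (SE 0.21) and Gins3 by 0.42 (SE 0.11), while Gins2 at 0.24 (SE 0.15) and Gins4 at 0.14 (SE 0.08) did not reach an unadjusted p of 0.05. Gins4 had the smallest difference of the 38 genes, with 7.19, 7.19, 7.34, 7.45 and 7.14 in knockouts, against 7.14, 7.09, 7.13, 7.19 and 7.08 in controls. Its groups overlapped, and knockouts 3 and 4 were above all controls. Mcm10, which helps to activate the helicase, was higher by 0.23 (SE 0.09).

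**Figure D3:**
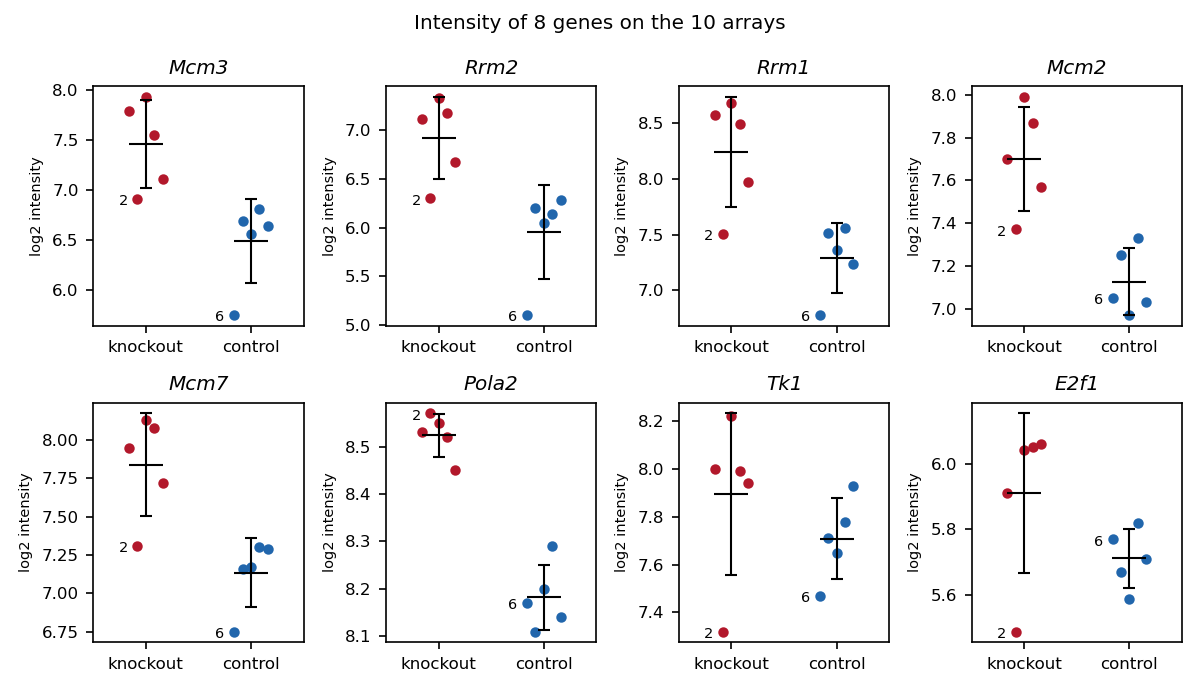
Log2 intensity (y axis, a separate scale for each gene) of 8 genes on the 5 knockout arrays (red) and the 5 control arrays (blue), with mean and SD as black bars; knockout 2 and control 6 are labelled by their numbers. Every knockout lies above every control for Mcm3, Rrm2, Mcm2, Mcm7 and Pola2, whereas knockout 2 is the lowest of all 10 arrays for Tk1 and E2f1.

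The starts of the genes were searched for consensus words of E2F factors. The window was 250 bases before to 50 after each start in RefSeq (GRCm38.p6), and the words were TTTCCCGC, TTTGGCGC, TTTCGCGC and TTTGCCGC on either strand, which can overlap each other. Of the 33 genes with a window in that table, 14 held such a word (42.4%), against 2.60% of all 27025 genes there. The windows of the set are richer in G and C, with a median of 60.7% against 52.7% for all windows. Gins1, Gins2, Gins4, Mcm4 and Pole had no window. CCAAT was found in 57.6% of the 33 genes against 41.06% of all, GGGCGG in 78.8% against 38.2%, and the words TTTGAA or TTCGAA, which mark many mitotic genes, in 21.2% against 21.66%. A match describes these letters and does not show that a factor binds. Within the set the word did not go with the size of the difference: the median log2 fold change was 0.41 in the 14 genes with it and 0.42 in the 19 without. Of these, 11 and 15 were higher at an unadjusted p under 0.05, against 8.29% of all genes.

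The 4 genes with a word and the largest difference were all ring subunits, and their sequences are shown to place the words, which are in capitals. For Mcm5 (chr8:75109309-75109508, plus strand), Mcm7 (chr5:138171884-138172083, minus strand) and Mcm6 (chr1:128359706-128359905, minus strand) the 200 bases before the start are given, 5′ to 3′ along the gene. For Mcm3 both words lie after the start, and 30 bases around them are given (bases 18 to 47 of the transcript, chr1:20820266-20820295, minus strand).
Mcm3: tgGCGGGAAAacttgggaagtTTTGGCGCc
Mcm5: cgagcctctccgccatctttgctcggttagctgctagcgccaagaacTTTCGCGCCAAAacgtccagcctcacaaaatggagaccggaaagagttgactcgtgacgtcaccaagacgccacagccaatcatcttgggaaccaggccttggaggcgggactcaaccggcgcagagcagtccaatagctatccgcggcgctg
Mcm7: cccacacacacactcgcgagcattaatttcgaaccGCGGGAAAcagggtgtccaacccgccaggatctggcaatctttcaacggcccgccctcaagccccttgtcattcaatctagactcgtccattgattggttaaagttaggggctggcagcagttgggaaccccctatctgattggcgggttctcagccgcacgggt
Mcm6: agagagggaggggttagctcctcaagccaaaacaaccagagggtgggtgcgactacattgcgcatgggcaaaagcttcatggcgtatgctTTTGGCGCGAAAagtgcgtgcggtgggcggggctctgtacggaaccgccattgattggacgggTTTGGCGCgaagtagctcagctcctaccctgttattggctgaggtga
In Mcm5 a word at 153 bases before the start overlaps a second on the other strand at 149 bases, so that they read as 1 stretch. Mcm6 has a similar overlapping pair at 110 and 106 bases and a further word at 47 bases. Mcm7 has a word at 165 bases before the start and another at base 17 of the transcript, which is not shown. Mcm3 has words at bases 20 and 39 of the transcript.

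Among the 6 genes for the polymerases and primase, 4 had an unadjusted p under 0.05, all higher, against 8.29% of all genes. The median log2 fold change of the 6 was 0.39. Pole, the catalytic subunit of the leading-strand polymerase epsilon, read 7.22, 5.98, 7.37, 7.26 and 6.71 in knockouts, against 5.66, 6.23, 6.07, 6.23 and 6.45 in controls. Knockouts 1, 3, 4 and 5 were above all controls, knockout 2 was below 4 of them, and the difference was 0.78 (SE 0.25, adjusted p = 0.202). Prim1, which makes the RNA primers, read 7.35, 6.29, 7.06, 7.17 and 6.76 in knockouts, against 5.54, 6.39, 6.45, 6.55 and 6.26 in controls. For Prim1 knockout 2 lay among the controls and control 6 far below them, and the difference was 0.69 (SE 0.22, adjusted p = 0.208).

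Both other polymerases were represented too. Pola2, the accessory subunit of the primer-extending polymerase alpha, had the smallest adjusted p of the set. It read 8.53, 8.57, 8.55, 8.52 and 8.45 in knockouts, against 8.17, 8.11, 8.20, 8.29 and 8.14 in controls, a difference of 0.34 (SE 0.07, adjusted p = 0.117). Its groups did not overlap, and knockout 2 was here the highest of the knockouts. The catalytic subunit Pola1 was higher by 0.38 (SE 0.16). Pole2, a partner of Pole, was at 0.41 (SE 0.19, unadjusted p = 0.0554). Pold1, the catalytic subunit of the lagging-strand polymerase delta, was at 0.25 (SE 0.14, unadjusted p = 0.103). Its values were 6.98, 6.48, 7.07, 7.23 and 6.75 in knockouts, against 6.40, 6.82, 6.49, 6.79 and 6.74 in controls, and 2 of the knockouts lay within the controls' range.

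Of 5 genes for the clamp, its loader and the joining of fragments, 3 were higher at an unadjusted p under 0.05, against 8.29% of all genes. The median log2 fold change of the 5 was 0.30. Lig1, the ligase that seals Okazaki fragments, read 7.35, 6.69, 7.78, 7.52 and 7.21 in knockouts, against 6.80, 6.76, 6.84, 6.56 and 6.93 in controls. All knockouts other than knockout 2 were above all controls, and the difference was 0.53 (SE 0.17, adjusted p = 0.205). Fen1, which trims the flaps of those fragments, read 6.39, 5.68, 6.38, 6.52 and 6.13 in knockouts, against 5.52, 5.77, 5.45, 6.16 and 5.94 in controls. Controls 7, 9 and 10 lay within the range of the knockouts for Fen1, controls 7 and 10 only above knockout 2, and the difference was 0.45 (SE 0.18, adjusted p = 0.282). Pcna, the sliding clamp itself, was higher by 0.25 (SE 0.11). The clamp loader subunits Rfc3 at 0.30 (SE 0.14) and Rfc5 at 0.23 (SE 0.12) did not reach an unadjusted p of 0.05. Rfc5 read 7.50, 7.02, 7.57, 7.60 and 7.30 in knockouts, against 7.04, 7.12, 7.19, 7.21 and 7.29 in controls, and knockout 2 was the lowest of the 10.

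Nucleotide supply had a median log2 fold change of 0.57, with 4 of 5 genes higher at an unadjusted p under 0.05, against 8.29% of all genes. Ribonucleotide reductase makes deoxyribonucleotides, and its small subunit Rrm2 limits the enzyme in S phase. Rrm2 read 7.12, 6.30, 7.33, 7.18 and 6.67 in knockouts, against 5.10, 6.20, 6.05, 6.14 and 6.28 in controls. The groups did not overlap, with knockout 2 just above control 10, and the difference was 0.97 (SE 0.25, adjusted p = 0.147). The large subunit Rrm1 read 8.57, 7.51, 8.68, 8.49 and 7.97 in knockouts, against 6.78, 7.52, 7.36, 7.56 and 7.24 in controls. Knockout 2 lay just below controls 7 and 9 for Rrm1, and the difference was 0.95 (SE 0.22, adjusted p = 0.129), a fold of 1.94.

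The other 3 genes of this group act on thymidine and uracil nucleotides. Dut, which removes dUTP so that uracil is kept out of DNA, was higher by 0.57 (SE 0.16, adjusted p = 0.173). Tyms, which makes dTMP from dUMP, was higher by 0.53 (SE 0.21). Tk1, the salvage kinase of thymidine, read 8.00, 7.32, 8.22, 7.99 and 7.94 in knockouts, against 7.47, 7.71, 7.65, 7.78 and 7.93 in controls, a difference of 0.19 (SE 0.15, unadjusted p = 0.250). For Tk1 knockouts 1, 3, 4 and 5 were above all controls, knockout 5 narrowly, and knockout 2 was below all controls.

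All 3 chromatin genes were higher at an unadjusted p under 0.05, against 8.29% of all genes, with a median log2 fold change of 0.53. Chaf1b, a subunit of the chromatin assembly factor that places histones behind the fork, read 7.42, 6.43, 7.69, 7.50 and 6.93 in knockouts, against 5.77, 6.43, 6.45, 6.79 and 6.84 in controls. Knockout 2 equalled control 7, control 6 was far below the others, and the difference was 0.74 (SE 0.25, adjusted p = 0.224). Uhrf1, which brings the maintenance methyltransferase to newly copied DNA, read 7.33, 6.48, 7.51, 7.33 and 6.88 in knockouts, against 6.43, 6.65, 6.49, 6.69 and 6.61 in controls, a difference of 0.53 (SE 0.17, adjusted p = 0.208). Chaf1a, the large subunit of the assembly factor, read 6.25, 5.99, 6.51, 6.64 and 6.25 in knockouts, against 5.92, 5.94, 5.87, 6.13 and 6.14 in controls, a difference of 0.33 (SE 0.12, adjusted p = 0.265). For both genes knockout 2 was the 1 knockout within the range of the controls.

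Of the 3 regulators, E2f8 and Ccne1 were higher at an unadjusted p under 0.05, against 8.29% of all genes, and E2f1 did not reach it. E2f8, an E2F member that represses E2F targets late in S phase, read 8.30, 7.39, 8.31, 8.16 and 7.87 in knockouts, against 6.56, 7.56, 7.69, 7.51 and 7.37 in controls, a difference of 0.67 (SE 0.23, adjusted p = 0.220). Knockout 2 lay within the range of the controls for E2f8, and control 6 far below the other controls. Ccne1, the cyclin that drives entry into S phase, read 7.14, 6.63, 6.95, 6.94 and 6.81 in knockouts, against 6.11, 6.39, 6.63, 6.86 and 6.40 in controls, a difference of 0.42 (SE 0.14, adjusted p = 0.219). Control 9 lay within the range of the knockouts for Ccne1, above knockouts 2 and 5, and control 8 equalled knockout 2. The activator E2f1 read 5.91, 5.49, 6.04, 6.05 and 6.06 in knockouts, against 5.77, 5.67, 5.59, 5.82 and 5.71 in controls, a difference of 0.20 (SE 0.12, unadjusted p = 0.112). Knockout 2 was the lowest of the 10 for E2f1, and the other knockouts were above all controls.

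Other genes of the same processes were taken from a list of 97 entries, of which 91 were measured. Of these 91, 75 had a positive difference, 48 were higher and 1 lower at an unadjusted p under 0.05, and the median log2 fold change was 0.29. Over all genes 46.5% were positive, 8.29% higher and 5.56% lower at that p. None of the 91 passed an adjusted p of 0.05 in limma. By kind, 22 of 39 further replication factors, 6 of 13 further nucleotide enzymes, 7 of 10 chromatin genes and 13 of 29 regulators of G1 and S phase were higher at that unadjusted p. Those with the lowest p were Dbf4, the activator of the kinase that fires origins (0.95, SE 0.18, adjusted p = 0.111), Mtbp, which takes part in origin firing (0.50, SE 0.12), and the histone chaperone Asf1b (0.95, SE 0.23). Among genes with a negative difference, Cdkn2d, an inhibitor of the G1 cyclin kinases, was at -0.23 (SE 0.10, unadjusted p = 0.0405). Rrm2b, the reductase subunit used outside S phase, was at -0.23 (SE 0.11, unadjusted p = 0.0545), and the retinoblastoma gene Rb1 at -0.22 (SE 0.11, unadjusted p = 0.0592). The list was written with earlier results of these arrays known.

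Several cell type marker lists had the lowest or highest level of each group on knockout 2 and control 6, where the set was lowest. The 11 measured Paneth markers of 15, as mean log2 intensity centred on the 10 arrays, were at 0.87, -1.51, 0.99, -0.16 and 0.42 on knockouts 1 to 5, against -1.43, 0.57, -0.79, 0.62 and 0.40 on controls 6 to 10. Knockout 2 and control 6, the lowest arrays of their groups for replication genes, were thus also the lowest for Paneth markers. Knockout 4 was below controls 7, 9 and 10 in Paneth markers and above them in replication genes. The 16 crypt stem markers of 17 ran from -0.33 to 0.35 in knockouts, against -0.69 to 0.24 in controls, again lowest on knockout 2 and control 6. Knockouts 1, 3 and 4 were the highest of the 10 arrays in both crypt stem markers and replication genes. Control 7 was above knockout 5 in crypt stem markers, at 0.24 against 0.19, and below it in replication genes, at -0.19 against 0.14. Of the crypt stem markers 14 of 16 had a positive difference, and the median log2 fold change was 0.31. At an unadjusted p under 0.05 in limma 5 were higher and 0 lower, against 8.29% of all genes higher and 5.56% lower. Of the Paneth markers 9 of 11 were positive, 0 were past that p in either direction, and the median was 0.37. In the other direction, the 14 enterocyte markers of 15 were highest on those arrays, at 0.13 on knockout 2 and 0.14 on control 6, and ran from -0.16 to 0.13 in knockouts, against -0.04 to 0.14 in controls. All 10 villus tip markers were measured, and their level ran from -0.33 to 0.19 in knockouts, against -0.14 to 0.28 in controls. The 10 tuft markers ran from -0.26 to -0.11 in knockouts, against 0.07 to 0.26 in controls, and the 12 enteroendocrine markers from -0.37 to -0.05 in knockouts, against 0.10 to 0.24 in controls. For both of these the groups did not overlap, and knockout 2 lay within the other knockouts. Positive differences were found for 10 of 10 macrophage, 9 of 9 endothelial and 7 of 9 fibroblast markers, and for 2 of 10 goblet and 3 of 10 T cell markers, where 46.5% of all genes were positive. They were also found for 1 of 10 smooth muscle and 2 of 11 B and plasma cell markers, with median log2 fold changes of -0.62 and -0.33. No smooth muscle marker had an unadjusted p under 0.05 in limma. Of the B and plasma cell markers 1 was higher and 0 lower at that p. At an unadjusted p under 0.05 in limma, 7 of 10 tuft, 5 of 12 enteroendocrine and 4 of 10 goblet markers were lower and 0 higher. At that p 5 of 9 endothelial, 4 of 10 macrophage and 4 of 9 fibroblast markers were higher and 0 lower. Detection values were not used here, so no marker is given as absent, and the part of tissue makeup in the differences was not tested.

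**Figure D4:**
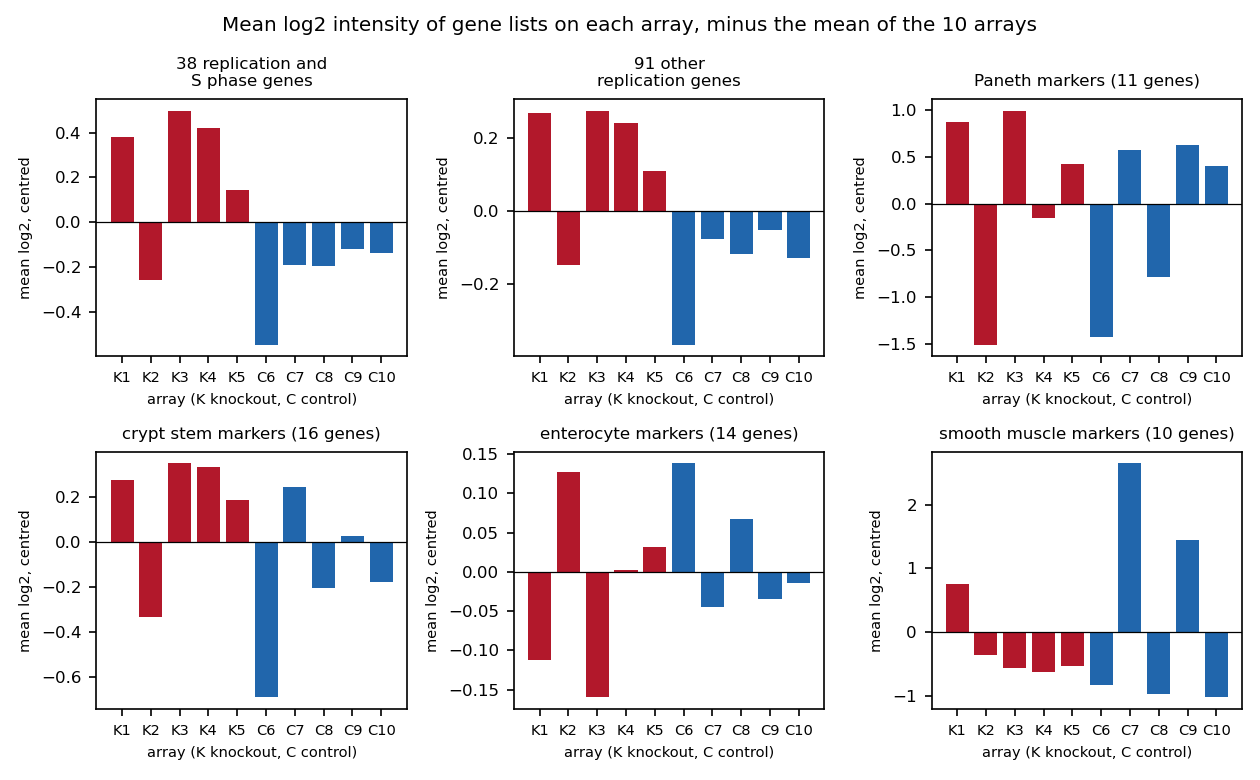
Mean log2 intensity of 6 gene lists on each array, minus the mean of the 10 arrays (y axis, a separate scale per panel), with knockouts 1 to 5 in red and controls 6 to 10 in blue. The replication genes and the Paneth and crypt stem markers are lowest on knockout 2 and control 6, where enterocyte markers are highest, while smooth muscle markers are high on knockout 1, control 7 and control 9.

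The number of genes past an adjusted p of 0.05 changed with the Paneth or enterocyte marker level as a covariate, and on leaving out knockout 2. Without that array 17 of the 38 were called higher, against 1.78% of all genes, and they included all 6 subunits of the MCM ring, at log2 fold changes of 0.66 to 1.11. Rrm1 (1.14, SE 0.18, adjusted p = 0.0207) and Mcm7 (0.84, SE 0.13, adjusted p = 0.0189) had the smallest adjusted p-values in that fit. Without any other single array 0 were called. Knockout 2 was the lowest knockout for 36 of the 38 genes, against 23.8% of all genes. Leaving it out therefore raises the knockout mean of those 36 by construction, and the share over all genes does not allow for this. With knockout 2 and control 6 both left out, 17 of the 38 were called, against 1.30% of all genes. Control 6 was the lowest control for 28 of the 38 genes, against 20.8% of all genes. Leaving out both arrays therefore narrows the range within groups for most of these genes by construction. The share over all genes is not a like comparison here either. With the Paneth marker level as a covariate 7 were called, against 1.38% of all genes, namely Mcm2, Mcm3, Mcm5, Mcm7, Pola2, Rrm1 and Rrm2. With the enterocyte marker level 4 were called, against 0.451%. The Paneth level was lowest and the enterocyte level highest on knockout 2 and control 6. Each covariate thus takes up part of the spread of these genes within groups. With the Paneth level all 7 had a smaller SE, and all but Pola2 a smaller difference. Mcm3 was at 0.88 (SE 0.14), against 0.97 (SE 0.23) without it. All 38 differences were positive with the Paneth level as a covariate, with a median of 0.38, and with the enterocyte level, with a median of 0.34. With no covariate the median was 0.42. The Paneth level itself had a mean of 0.12 in knockouts and -0.12 in controls (SD 1.02 and 0.93). The enterocyte level was at -0.02 and 0.02 (SD 0.11 and 0.08). No fit used the crypt stem level, so the part of tissue makeup was not tested by these covariates.

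**Figure D5:**
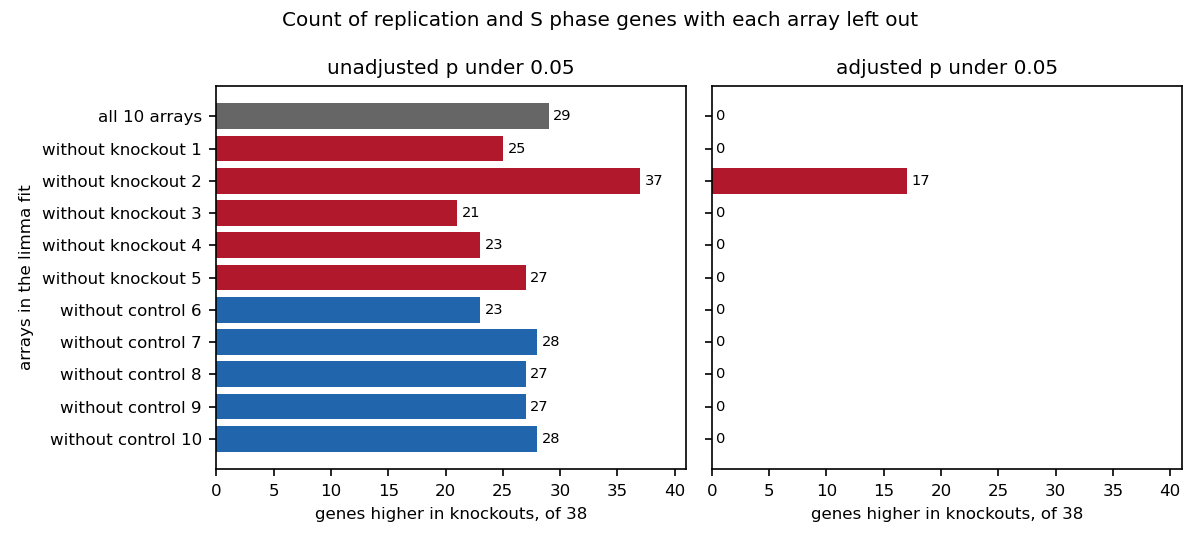
Number of the 38 genes that were higher in knockouts (x axis) at an unadjusted p under 0.05 (left) and at an adjusted p under 0.05 (right), in the limma fit of all 10 arrays (grey) and with each knockout (red) or control (blue) left out. The count at an unadjusted p lies between 21 and 37, and 17 genes pass after adjustment without knockout 2.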

How the data were processed

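The authors deposited probe set intensities on a linear scale. The submitters' processing notes name RMA and Affymetrix Expression Console (version 1.4.1.46). RMA corrects background, equalises array distributions and summarises probes, so a shift of all RNA on an array would not show. The deposited values were converted to log2, where they fall on steps of 0.01. Which genome build the probe sets follow is not given in the sources used here. Of 34472 probe sets, 23521 had 1 gene symbol in the platform annotation, 1814 several and 9137 none; only the first kind was used. They gave 22180 genes, with no filter on intensity. Of the 38 genes, 4 had a second probe set.

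Groups come from the sample titles. The source text of the controls also describes intestine without phosphatidylcholine synthesis, against their genotype, and the series text speaks of re-feeding where every sample label gives the fasted state. Differences of log2 values were tested two-sided by lmFit and eBayes (limma 3.58.1, R 4.3.3) across the 2 groups, with Benjamini-Hochberg adjustment over all genes. The exact permutation test used all 252 assignments of the 10 arrays, with a smallest possible p of 0.00794. The labels do not say that samples are separate mice, so the spread behind each p-value is that between these samples and may be technical, and the number of arrays limits precision. The labels name no batch. Scripts were tested on simulated data.

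The members and lists were chosen with earlier results of these data known. Values on every array are given for the 2 largest differences and the smallest in each role, and for Mcm2, Mcm7 and Pola2, added because their groups did not overlap. Other replication genes were named by lowest p, up to 3 per direction. Alternatives were a further normalisation, intensity filters, probe set choice, variance models, arrays left out and marker covariates.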

Additional observations from a re-analysis of the deposited data

Results flagged for a closer look

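In groups of 5 arrays, a value was picked out where its gap to the nearest other array, as a share of the group's range, was above 0.71. This held for 9 of the 78 groups tested (Pcyt1a and the 38 genes, in knockouts and in controls), where chance flags about 1 in 20. All 9 were low values, on knockout 2 or control 6. Knockout 2 was far below the other knockouts for Cdc45 (share 0.73, 5.80 against 6.26 to 6.43), Pola1 (0.713, 5.95 against 6.62 to 6.89) and E2f1 (0.737, 5.49 against 5.91 to 6.06). Control 6 was far below the other controls for Rrm2 (share 0.805, 5.10 against 6.05 to 6.28), Mcm3 (0.764, 5.75 against 6.56 to 6.81), Mcm7 (0.745, 6.75 against 7.16 to 7.30), Tyms (0.741, 6.58 against 7.18 to 7.39), E2f8 (0.717, 6.56 against 7.37 to 7.69) and Prim1 (0.713, 5.54 against 6.26 to 6.55). The genes share their arrays, so these are not 9 separate events.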

How the results depend on the processing

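The direction of all 38 differences was the same in every alternative in which the gene was tested, and Pcyt1a stayed past an adjusted p of 0.05 in each. The count of genes past an adjusted p of 0.05 was 0 with all 10 arrays and 0 to 17 with any 1 array left out. It was 17 with knockout 2 and control 6 left out, 7 with the Paneth covariate and 4 with the enterocyte covariate, and 0 in the other 10 alternatives. Most of these genes were lowest in their groups on those 2 arrays, where both covariates had their extremes. A share over all genes does not allow for this. The cause of the changes in count was not tested. The count at an unadjusted p under 0.05 lay between 21 and 37 on leaving out an array and between 21 and 37 in the other 13 fits, the lowest being without knockout 3, and with the 3 arrays of most smooth muscle signal removed. The share of all genes higher at that p was 5.97% to 9.65% and 6.45% to 15.5% in the same fits. The median log2 fold change was between 0.38 and 0.55 on leaving out an array, and between 0.34 and 0.48 in the other 13. No paired analysis was possible because the groups share no replicate numbers. Second probe sets of Fen1 (0.06), Pole (0.12), Dut (0.19) and Rrm2 (0.26), all dimmer, gave smaller log2 differences than the 0.45, 0.78, 0.57 and 0.97 of those used. Values near background are not marked as such, since detection values were not used here.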
